A study of Mus musculus with 8 samples.

Results

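Lipid droplet and triglyceride lipase genes were examined as a set of 10, namely Pnpla2, Pnpla7, Pnpla8, Lipe, Mgll, Plin2, Plin4, Plin5, G0s2 and Dgat2. They were taken by gene symbol from a gene table of 41128 gene IDs, and all 10 were among the 16551 genes with enough counts to be tested. The set was chosen by gene function with earlier results of the comparison of RE1 KO with WT ventricles in view, the RE1 KO over WT fold changes and p-values of these same counts, so the differences between these groups are given for the 10 genes as a description and are not offered as a test.

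RNA was sequenced from the left ventricle of 4 mice labelled HOM (homozygous) for the deletion of RE1, called RE1 KO here, and of 4 wild-type (WT) littermates, all of strain FVB and 8 to 12 weeks old. RE1 is a regulatory element of a super enhancer, a dense cluster of such elements, that the series title places over Nppa and Nppb, which encode the atrial and B-type natriuretic peptides. The labels name no treatment and no further allele in either group, and they give neither sex nor the time of day of tissue collection. The breeding protocol names Myh6-MerCreMer, nTnG and Sun1/sfGFP reporter lines, which the labels do not tie to these 8 libraries. The labels number the libraries within each group and do not say whether animals were pooled, so p-values measure the spread between libraries. Whole ventricular tissue was used, so a lower count from fewer cells of a type and a lower count from less RNA per cell cannot be told apart.

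Heart muscle burns mainly fatty acids, and it keeps a small, rapidly turned-over store of them as triglyceride in lipid droplets. Dgat2 carries out the last step of triglyceride synthesis, the perilipins Plin2, Plin4 and Plin5 coat the droplet and govern access to it, and the lipases Pnpla2, Lipe and Mgll remove the fatty acids one after another, with G0s2 as the inhibitor of Pnpla2. Pnpla7 and Pnpla8 belong to the same patatin-like family as Pnpla2 and act chiefly on phospholipids. In human fat cells natriuretic peptides stimulate lipolysis through cyclic GMP, which connects the peptides of this locus to the pathway.

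Gene counts totalled 16778368 to 37133306 per RE1 KO library and 20284865 to 34742840 per WT library. Nppa was at 6.88 ± 2.26 normalized counts in RE1 KO ventricles and 419.7 ± 140 in WT ventricles, and Nppb at 6.06 ± 4.37 in RE1 KO and 2983 ± 1170 in WT ventricles (SD, n = 4 each), so every library matched its label. Normalized counts are read counts divided by 1 size factor per library. Cardiomyocyte markers such as Myh6 and Tnnt2 summed to between 1340825 and 1445982 normalized counts in RE1 KO and between 1315457 and 1429526 in WT libraries, whereas the atrial markers Myl7, Myl4 and Sln summed to 30.1 to 90.8 in RE1 KO and 22.9 to 41.2 in WT libraries. The ventricular label and these markers matched. Over all genes tested, edgeR called 46 genes higher and 84 lower in RE1 KO at an adjusted p of 0.05, and the median log2 fold change was 0.0001.

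The 10 genes spanned more than an order of magnitude in level once counts were divided by exon length. Plin4, the perilipin of muscle and fat, was the highest, with 2433 ± 127 normalized counts per kilobase in RE1 KO and 2436 ± 279 in WT ventricles (SD, n = 4 each, as for the other levels). In WT ventricles this placed Plin4 at percentile 97.3 of the genes tested. Dgat2 followed with 1085 ± 47.6 per kilobase in RE1 KO and 1142 ± 106 in WT, and Pnpla2 with 948 ± 70.9 in RE1 KO and 1002 ± 44.1 in WT. The ranges of Dgat2 and Pnpla2 over the 4 WT libraries overlapped, so their order was not resolved. Plin5 had 843 ± 56.4 per kilobase in RE1 KO and 759 ± 97.8 in WT, and Mgll had 556 ± 39.4 in RE1 KO and 648 ± 40.1 in WT. G0s2 had 625 ± 101 per kilobase in RE1 KO and 592 ± 32.3 in WT. The WT range of Mgll overlapped those of both its neighbours in the order, Plin5 and G0s2. Plin2, the perilipin found in most tissues, had 205 ± 11.4 per kilobase in RE1 KO and 225 ± 16.3 in WT. Pnpla8 had 184 ± 6.62 in RE1 KO and 178 ± 2.78 in WT, and its WT range lay below that of Plin2. The lowest were Pnpla7, with 68.6 ± 3.13 per kilobase in RE1 KO and 91.3 ± 4.64 in WT, and Lipe, with 75.0 ± 6.56 in RE1 KO and 88.3 ± 17.5 in WT, and their WT ranges overlapped. Lipe stood at percentile 58.0 of the genes tested in WT ventricles. With the longest transcript in place of all exon bases as the length, Plin5 and Mgll changed places and the order of the other 8 genes was the same. Even the lowest of these genes was counted well, since the raw count of Lipe was 246 to 689 per library and that of Plin4 was 8255 to 20064.

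**Figure D1:**
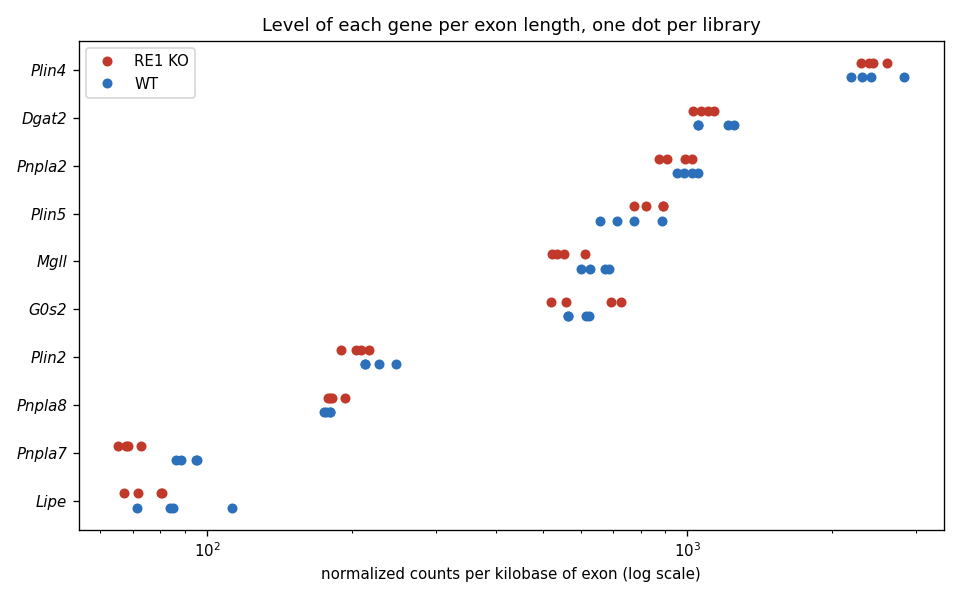
Normalized counts per kilobase of exon (log axis) of the 10 genes, with 1 dot per library, RE1 KO in red above WT in blue. Plin4 lay highest, at 2433 per kilobase in RE1 KO and 2436 in WT on average, and Pnpla7 is the gene whose 4 RE1 KO dots all lie below its 4 WT dots.

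The first lipase, Pnpla2 (adipose triglyceride lipase, ENSMUSG00000025509, chromosome 7, 141455198 to 141460743 on the plus strand, GRCm38), removes the first fatty acid from triglyceride. It had 3094, 2634, 2989 and 2738 normalized counts in RE1 KO libraries 1 to 4, against 2872, 2975, 3082 and 3180 in WT libraries 1 to 4. These ranges overlapped, and the log2 fold change of RE1 KO over WT was −0.08 (SE 0.06). Its inhibitor G0s2 (ENSMUSG00000009633, chromosome 1, 193272161 to 193273217, minus strand) had 605, 633, 453 and 486 in RE1 KO, against 545, 493, 535 and 491 in WT libraries. Of the 10 genes it varied most among RE1 KO libraries, with a coefficient of variation of 16.2%, against 5.46% among WT libraries. Its log2 fold change was 0.08 (SE 0.10) and turned to −0.02 without RE1 KO replicate 2. Abhd5, which activates Pnpla2, had 814 ± 32.1 in RE1 KO and 851 ± 24.9 in WT (SD, n = 4 each).

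Lipe (hormone-sensitive lipase, ENSMUSG00000003123, chromosome 7, 25379527 to 25398710, minus strand) acts mainly on diacylglycerol. It had 396, 474, 423 and 473 normalized counts in RE1 KO, against 500, 493, 422 and 665 in WT libraries. WT replicate 4 stood above all others and WT replicate 3 among the RE1 KO values. The log2 fold change was −0.23 (SE 0.11), and −0.09 without WT replicate 4. The same library had the highest sum of 7 fat cell markers out of a list of 11 (Adipoq, Plin1, Cidec, Retn, Lep, Cfd and Adrb3). The 7 summed to 1.61, 2.75, 28.2 and 9.35 normalized counts in RE1 KO libraries 1 to 4, against 23.6, 45.1, 26.6 and 109 in WT libraries 1 to 4. Adipoq itself was at 0 in RE1 KO replicates 1, 2 and 4, and the brown fat marker Ucp1 was at 0 in all 8 libraries. Over all 11 markers, where Fabp4, a gene that capillary endothelium also expresses, makes up nearly all of the sum, the values were 3509 to 4850 in RE1 KO and 4343 to 4958 in WT libraries, and WT replicate 4, at 4771, was below WT replicate 2 and RE1 KO replicate 4. The part of fat cells in the Lipe values was not tested.

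Mgll (monoglyceride lipase, ENSMUSG00000033174, chromosome 6, 88724412 to 88828360, plus strand) removes the last fatty acid and also breaks down the endocannabinoid arachidonoylglycerol. It had 2658, 2818, 2713 and 3107 normalized counts in RE1 KO, against 3485, 3053, 3184 and 3427 in WT libraries. RE1 KO replicate 4 was the only library of its group above the lowest WT library. The means were 2824 ± 200 in RE1 KO and 3287 ± 203 in WT (SD, n = 4 each), a log2 fold change of −0.22 (SE 0.06) that did not pass the threshold over all genes. It passed in 3 of 17 alternative settings, which were DESeq2, no filter on low counts, and leaving out RE1 KO replicate 4.

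Pnpla7 (ENSMUSG00000036833, chromosome 2, 24976033 to 25054057, plus strand) encodes a lysophospholipase found at the endoplasmic reticulum and at lipid droplets. Its normalized counts were 489, 514, 507 and 546 in RE1 KO, against 647, 662, 716 and 711 in WT libraries. All 4 RE1 KO libraries lay below all 4 WT libraries, and the gap between the groups was wider than the range within either. The means were 514 ± 23.5 in RE1 KO and 684 ± 34.8 in WT (SD, n = 4 each), a log2 fold change of −0.41 (SE 0.06), or 1.33-fold lower. Over 17 alternative settings the log2 fold change ran from −0.57 to −0.39 and passed the threshold in 16. All these fits drew on the same libraries, so they describe dependence on the processing and are no separate evidence. It was −0.39 without WT replicate 4, the library with the highest sum of the 7 fat cell markers. The part of fat cells in the Pnpla7 values was not tested. The genes next to it on chromosome 2 did not pass, with log2 fold changes of 0.12 for Mrpl41, a mitochondrial ribosomal protein gene (SE 0.08, adjusted p = 0.545 by edgeR), and 0.06 for Nsmf (SE 0.08, adjusted p = 0.821 by edgeR).

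Pnpla8 (ENSMUSG00000036257, chromosome 12, 44221370 to 44322532, plus strand), a calcium-independent phospholipase of mitochondria and peroxisomes, was the steadiest of the 10. It had 2560, 2531, 2741 and 2582 normalized counts in RE1 KO, against 2511, 2557, 2561 and 2479 in WT libraries. The coefficient of variation among WT libraries was 1.56%. Its log2 fold change was 0.04 (SE 0.04).

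Among the droplet coat proteins, Plin2 (ENSMUSG00000028494, chromosome 4, 86648386 to 86670060, minus strand) had 666, 733, 718 and 762 normalized counts in RE1 KO, against 748, 749, 800 and 870 in WT libraries. Only RE1 KO replicate 4 reached the WT range, and the log2 fold change was −0.13 (SE 0.06). Plin4 (ENSMUSG00000002831, chromosome 17, 56100591 to 56109803, minus strand) had 13289, 13805, 14084 and 15037 in RE1 KO, against 13357, 12662, 13918 and 16363 in WT libraries. The group means differed by less than 1 SD, 14054 ± 734 in RE1 KO and 14075 ± 1609 in WT (n = 4 each), and the sign of its log2 fold change of −0.003 (SE 0.07) depended on the setting. Plin5 (ENSMUSG00000011305, chromosome 17, 56111601 to 56117596, minus strand) tethers droplets to mitochondria in oxidative tissue and lies 1797 bases from Plin4. It had 1615, 1854, 1711 and 1855 in RE1 KO, against 1376, 1493, 1618 and 1853 in WT libraries. WT replicates 1 and 2 lay below all RE1 KO libraries and WT replicates 3 and 4 lay within their range. Its log2 fold change was 0.15 (SE 0.08), and 0.09 without WT replicate 1.

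Dgat2 (ENSMUSG00000030747, chromosome 7, 99153658 to 99182719, minus strand) had 3171, 3290, 3512 and 3405 normalized counts in RE1 KO, against 3744, 3855, 3240 and 3241 in WT libraries. The WT libraries fell into a higher and a lower pair that enclosed 3 of the 4 RE1 KO values. The log2 fold change was −0.08 (SE 0.06). Dgat1, the other enzyme for the same step, had 443 ± 50.7 in RE1 KO and 418 ± 27.0 in WT (SD, n = 4 each).

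**Figure D2:**
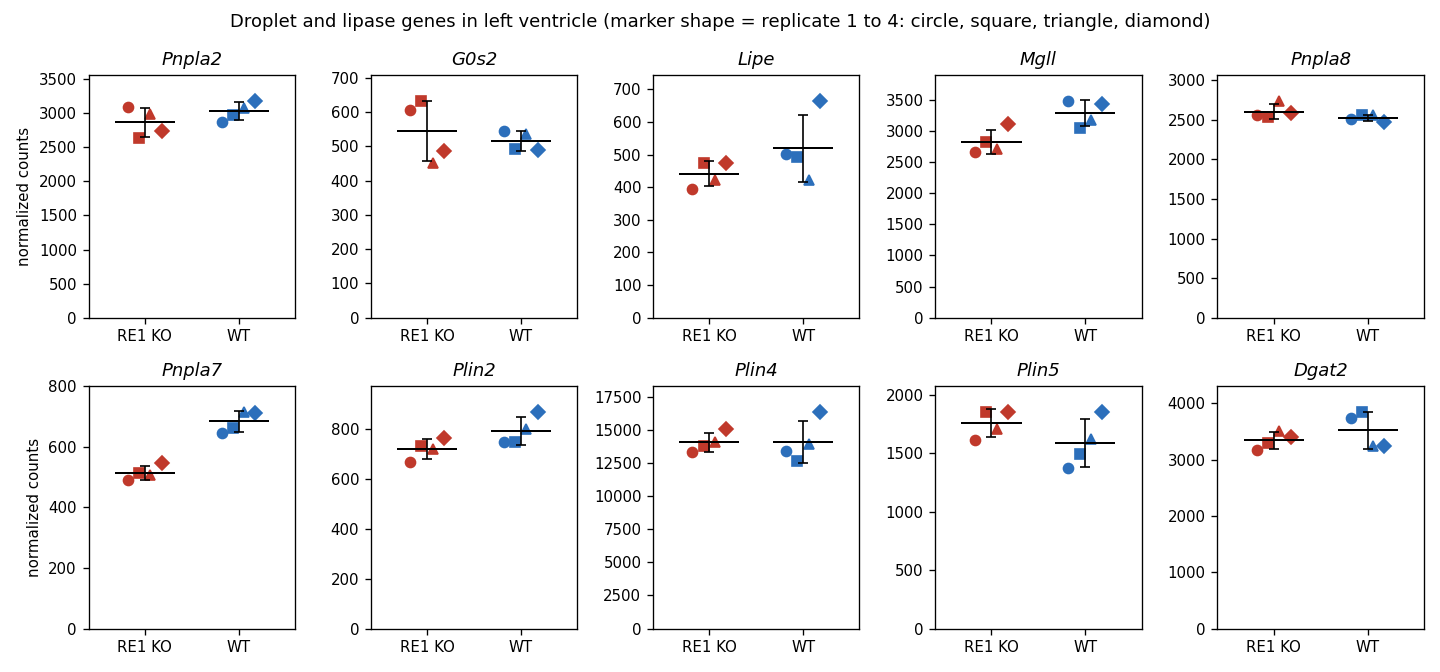
Normalized counts of the 10 genes (linear axes from 0), with 1 point per library, RE1 KO in red left of WT in blue, the horizontal line at the mean and the bar at ± 1 SD of 4 libraries. The RE1 KO points of Pnpla7, 489 to 546, all lie below its WT points, 647 to 716, while the groups of every other gene overlap.

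Of the 10 genes, 0 passed the threshold upwards and 1, Pnpla7, downwards in the edgeR fit over all genes, where 0.785% of the genes tested were called, 0.278% higher and 0.508% lower. DESeq2 called 0 higher and 2 lower, Pnpla7 and Mgll, where 0.778% of the genes with a DESeq2 adjusted p were called higher and 1.28% lower. At an unadjusted p of 0.05 the edgeR fit held 2 of the 10, against 13.1% of all genes. The groups did not overlap for 1 of the 10, against 7.15% of all genes. Log2 fold changes were positive for 3 genes and negative for 7, with a median of −0.08, against 8283 positive and 8268 negative over all genes. The authors' deposited table gives WT over RE1 KO for the same libraries and is no separate evidence. It had 1 of the 10 past an adjusted p of 0.05, Pnpla7, with a log2 fold change of 0.41 in that direction. Of the 14259 genes with an adjusted p in that table, 1.69% passed.

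**Figure D3:**
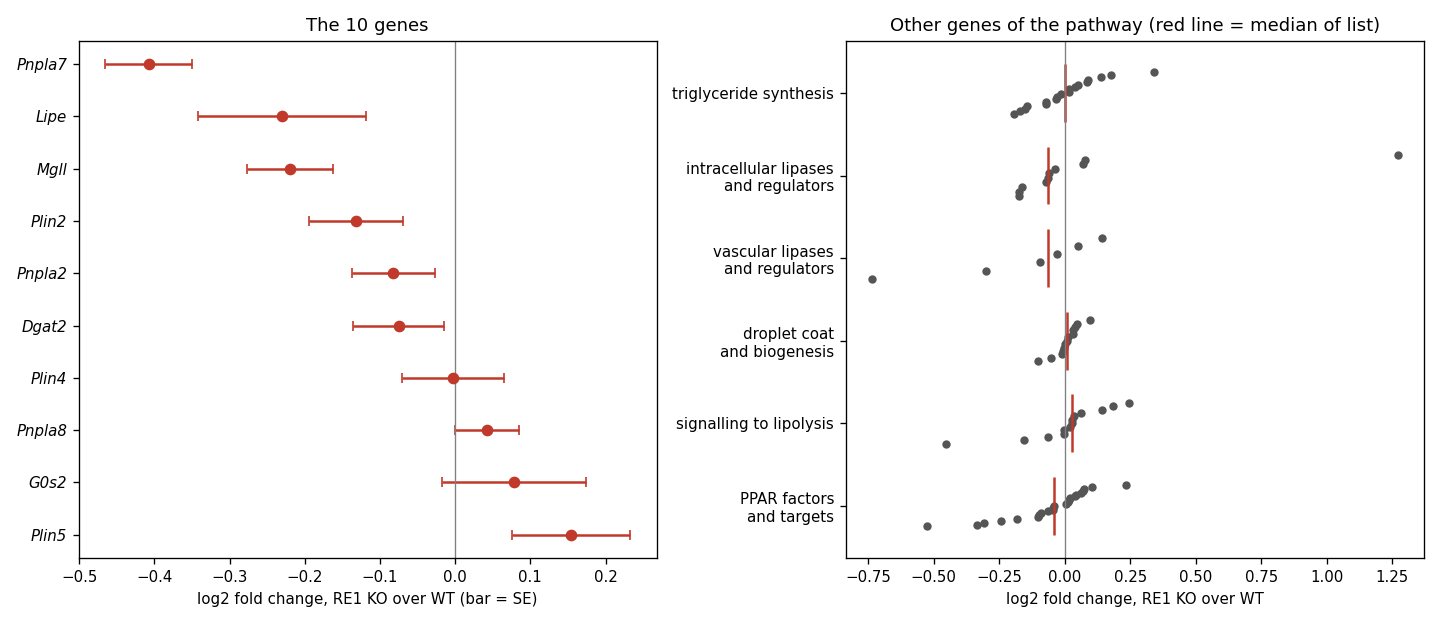
Log2 fold change of RE1 KO over WT, for the 10 genes with bars of 1 SE (left) and for the tested genes of 6 pathway lists with 1 dot per gene and a red line at the median of each list (right). Pnpla7 lies farthest to the left of the 10 at −0.41, and the medians of the 6 lists lie between −0.06 and 0.03.

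Sequence before the start of each gene was available from RefSeq (GRCm38.p6) for 9 of the 10, in windows of 250 bases before to 50 bases after an annotated start. Only the 250 bases before the start were searched, and a window below means this part. The palindrome CACGTG is the core of the E-box that clock factors and other helix-loop-helix proteins bind. It was found in windows of 3 of the 9 genes, against 6.86% of 27025 genes, whether tested here or not. Among tested genes with a window the share was larger than that, as 1020 held CACGTG and 9455 did not. The 3 genes were Pnpla7, Mgll and Lipe, the genes of the set with the most negative log2 fold changes in the fit to all libraries, an overlap noticed after their values were seen. Without WT replicate 4 Dgat2, at −0.11, lay below Lipe, at −0.09. The match began 63 bases before the start of Pnpla7, 44 before that of Mgll and 155 before that of Lipe. The window of Mgll holds an exon of the antisense gene Gm26588, and that of Lipe holds an exon of another Lipe transcript. The 250 bases before the start of Pnpla7, the called gene, and 30 bases around the match in the other genes are shown 5′ to 3′ on the strand of the gene with CACGTG in capitals.
Pnpla7, chr2:24975783-24976032 (plus strand): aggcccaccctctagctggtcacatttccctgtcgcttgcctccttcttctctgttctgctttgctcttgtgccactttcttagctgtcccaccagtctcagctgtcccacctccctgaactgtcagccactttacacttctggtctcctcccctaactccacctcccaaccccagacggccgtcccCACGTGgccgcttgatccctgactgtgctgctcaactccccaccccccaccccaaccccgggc
Mgll, chr6:88724356-88724385 (plus strand): gggggccgggcaCACGTGgggccccggcgc
Lipe, chr7:25396125-25396154 (minus strand): aacagggacgacCACGTGagggggcggagg
Across all tested genes with a window, 0.980% of the 1020 genes with CACGTG were called lower, against 0.561% of the 9455 without it, and 51.4% of the genes with it had a negative log2 fold change, against 51.5% of those without. A match shows that the letters are there and no more. The half-site AGGTCA of nuclear receptors was found in windows of Plin2 and Plin5 (14.0% of all 32851 windows hold it). The PPAR direct repeat is the spaced form that PPAR dimers bind. This repeat, the D-box TTANGTAA and the TATA box letters TATAAA were in no window of the 9 genes. Of all windows, 0.338%, 2.06% and 12.4% hold them. For the TATA box only TATAAA was searched, and windows of Plin4 and Plin5 hold the near match TATAAG. The CCAAT box was in windows of Plin2, Plin4 and Plin5 (33.8% of all windows hold it). The GC box GGGCGG was in windows of G0s2, Mgll, Lipe, Pnpla2, Pnpla8 and Plin5 (32.7% of all windows). Such shares are per window and not per gene, and Mgll, Lipe and Plin5 each have a further window in which a match could fall. Both strands were searched, and the spaced repeat can contain the half-site.

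No gene of 6 lists around the 10 passed the threshold in either direction. The lists held 97 genes, of which 83 were tested, and 9 had an unadjusted edgeR p under 0.05, which is no larger a share than the 13.1% over all genes. DESeq2 called 1 higher (Pnpla3) and 1 lower (Ppargc1a), and limma called 0. Positive and negative log2 fold changes were balanced, 41 and 42, with a median of −0.003.

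Triglyceride synthesis had 18 of 20 genes tested, 9 with a positive and 9 with a negative log2 fold change (median 0.0005). Gpam, the acyltransferase of the first step, had 4418 ± 455 normalized counts in RE1 KO and 5054 ± 200 in WT (SD, n = 4 each), a difference of −0.19 in log2 (SE 0.06, adjusted p = 0.182 by edgeR). Acsl3, which activates fatty acids at the droplet, was at 138.5 ± 12.4 in RE1 KO and 113 ± 37.3 in WT, with a log2 fold change of 0.34 (SE 0.17, adjusted p = 0.428 by edgeR). Acsl5, another activating enzyme, had −0.15 (SE 0.08) and Gpat3, a further acyltransferase, −0.14 (SE 0.08).

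Other intracellular lipases and their regulators had 10 of 15 genes tested, 3 positive and 7 negative (median −0.06). The widest difference was that of Pnpla3, the family member closest to Pnpla2 and best known from liver. It had 38.6, 72.2, 48.0 and 23.9 normalized counts in RE1 KO, against 14.5, 20.6, 14.6 and 29.2 in WT libraries, so that RE1 KO replicate 4 lay within the WT range. The log2 fold change was 1.27 (SE 0.33, adjusted p = 0.0935 by edgeR), and the threshold was passed with DESeq2, with no low-count filter and without RE1 KO replicate 4. Pnpla6, the closest relative of Pnpla7, had a log2 fold change of −0.16 (SE 0.09, adjusted p = 0.446 by edgeR), and Abhd6, another monoacylglycerol lipase, −0.17 (SE 0.14).

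Vascular lipases and their regulators had 6 of 8 genes tested, 2 positive and 4 negative (median −0.06). Lpl, which frees fatty acids from circulating lipoproteins, was at 57626 ± 682 normalized counts in RE1 KO and 55527 ± 1628 in WT (SD, n = 4 each). Its inhibitor Angptl4 was at 27.4, 55.05, 37.6 and 47.8 in RE1 KO, against 41.95, 84.4, 73.2 and 96.4 in WT libraries, with a log2 fold change of −0.73 (SE 0.25, adjusted p = 0.220 by edgeR). The 2 maturation factors of lipases had 0.14 (Lmf1, SE 0.08) and −0.10 (Lmf2, SE 0.06).

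Other genes of the droplet coat and of droplet formation had 13 of 17 tested, 8 positive and 5 negative (median 0.01), and 0 of them had an unadjusted edgeR p under 0.05. Plin3, a further perilipin, had 3037 ± 129 normalized counts in RE1 KO and 2838 ± 237 in WT (SD, n = 4 each). Log2 fold changes were −0.10 (SE 0.12) for the seipin gene Bscl2, −0.05 (SE 0.07) for Aup1 and 0.04 (SE 0.05) for Fitm1, which helps droplets form in muscle.

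Genes that signal to lipolysis had 13 of 14 tested, 8 positive and 5 negative (median 0.03). Npr1, the receptor of both natriuretic peptides, was at 409 ± 26.9 in RE1 KO and 369 ± 27.4 in WT (SD, n = 4 each), with a log2 fold change of 0.14 (SE 0.07, adjusted p = 0.430 by edgeR). Prkg1, the cyclic GMP-dependent kinase downstream of it, had 533, 517, 461 and 540 in RE1 KO, against 475, 423, 443 and 460 in WT libraries. Its log2 fold change was 0.18 (SE 0.07, adjusted p = 0.242 by edgeR). Pde3b, which breaks down cyclic nucleotides, had 0.24 (SE 0.16), and the low gene Prkg2 had −0.45 (SE 0.27).

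PPAR factors and target genes, which drive fatty acid oxidation, were all tested, with 11 positive and 12 negative of 23 (median −0.04). Ppargc1a, the coactivator of mitochondrial genes, had 2447, 1889, 2474 and 2338 normalized counts in RE1 KO, against 3260, 2604, 2580 and 3049 in WT libraries. The groups did not overlap, and its log2 fold change was −0.34 (SE 0.09, adjusted p = 0.0996 by edgeR). Cpt1a, one of the enzymes that admit fatty acids to mitochondria, had 576, 714, 570 and 711 in RE1 KO, against 782, 918, 716 and 780 in WT libraries, also without overlap, and −0.31 (SE 0.09, adjusted p = 0.133 by edgeR). Ppargc1b was at −0.18 (SE 0.07) and Ppard at −0.24 (SE 0.09). Pdk4, a well-known PPAR target, varied far more within groups, from 2041 to 6254 in RE1 KO and from 2739 to 5102 in WT libraries.

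Within groups, the perilipins and Pnpla7 varied together from library to library. Taking each library's deviation from its own group mean in log2 CPM, Pearson r over the 8 libraries was 0.94 for Plin2 with Plin5, 0.92 for Plin2 with Plin4 and 0.84 for Plin4 with Plin5. Pnpla7 had an r of 0.88 with Plin2, 0.84 with Plin5 and 0.74 with Plin4. RE1 KO replicate 1 and WT replicates 1 and 2 were below their group means for all 4 of these genes, and RE1 KO replicate 4 and WT replicate 4 were above. The RE1 KO libraries formed a pair of replicates 1 and 3 and a pair of replicates 2 and 4, with a chi-square per gene of 3.09 and 3.60 within the pairs and 14.3 to 16.4 across them. Mitochondrial rRNA took 9.40% and 9.01% of the counts in the first pair and 6.40% and 6.19% in the second, against 8.51% to 10.5% in WT libraries. Its within-group r was 0.76 with Pnpla2 and lay between −0.47 and 0.36 for the other 9 genes. Its part in their values was not tested. At the other end were Pnpla8 and G0s2, with an r of −0.69. Over all pairs of the 10 genes this value was the lowest, and the 6 values of the perilipins and Pnpla7 were the highest. Lipe followed closely, with an r of 0.74 with Plin4, 0.70 with Plin2 and 0.67 with Plin5. The groups could also differ, as for Pnpla2 with Plin5, whose r was 0.99 in WT, −0.97 in RE1 KO and 0.05 over both. All such points share a library, its depth and its normalization, so the values are a description.

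**Figure D4:**
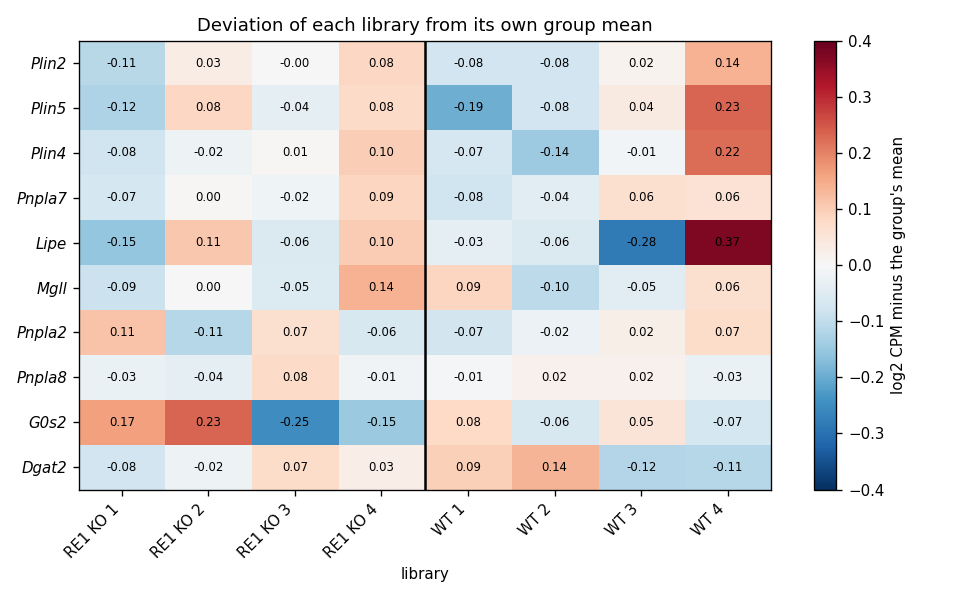
Deviation of each library from the mean of its own group in log2 CPM, for the 10 genes (rows) in RE1 KO libraries 1 to 4 and WT libraries 1 to 4 (columns), red above and blue below the mean. The top 4 rows (Plin2, Plin5, Plin4, Pnpla7) share a pattern, and Lipe has the widest spread, −0.28 in WT replicate 3 and 0.37 in WT replicate 4.

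Other PPAR targets and vascular genes were set beside the perilipins by the same measure. The mean r with the 3 perilipins was highest, at 0.89, for Cpt1b, the muscle form of the mitochondrial gate enzyme. It was 0.82 for the fatty acid transporter Cd36 and 0.74 for the oxidation enzyme Acadvl. Other genes of the PPAR list lay near 0 or below it, such as Cpt1a (0.08), Cpt2 (0.03) and Acadl (−0.16). The PPAR factors themselves had −0.27 (Pparg), −0.46 (Ppara) and −0.62 (Ppard), so the list did not vary as a whole with the perilipins. The lowest value, −0.85, was that of Lmf2 in the vascular list. Pnpla7 had an r of 0.93 with Pdk4. Neither Cpt1b (log2 fold change 0.10, SE 0.08) nor Cd36 (0.06, SE 0.05) passed the threshold between groups. Over the 8 libraries without centring, so that the difference between the groups counts too, the tested genes most like Pnpla7 were the ribosome biogenesis gene Nol6 (r = 0.980), Arhgap11a (r = 0.979) and the reductase gene Cyb5r3 (r = 0.979). Their log2 fold changes were −0.26 for Nol6 (SE 0.07, adjusted p = 0.0887 by edgeR), −0.63 for Arhgap11a (SE 0.14, adjusted p = 0.0568 by edgeR) and −0.17 for Cyb5r3 (SE 0.05, adjusted p = 0.121 by edgeR).

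Of 12 circadian clock genes, edgeR called 3 higher and 6 lower in RE1 KO, and 11 had an unadjusted p under 0.05. DESeq2 called 2 higher and 6 lower, robust dispersion estimates (a setting chosen after seeing the data) 2 and 2, and the fits without 1 library 0 to 4 higher and 3 to 7 lower. Without RE1 KO replicate 2 the count was 0 higher and 3 lower, and without RE1 KO replicate 4, WT replicate 1 or WT replicate 2 it was 0 higher and 5 lower. Arntl, the activator whose level peaks opposite to Dbp and Nr1d1, had 320.9 ± 77.5 normalized counts in RE1 KO and 96.3 ± 75.8 in WT (SD, n = 4 each), with a log2 fold change of 1.81 (SE 0.35, adjusted p = 0.0328 by edgeR), a call that was lost with DESeq2, with robust dispersion estimates and when any of 5 single libraries was left out. Dbp, an output factor, fell by 1.82 (SE 0.25, adjusted p = 0.00681 by edgeR) and the repressor Nr1d1 fell by 0.51 (SE 0.08, adjusted p = 0.0102 by edgeR). The call of Dbp was lost with robust dispersion estimates and that of Nr1d1 without RE1 KO replicate 2. An index, the mean log2 CPM of Arntl, Npas2, Clock and Nfil3 minus that of Dbp, Tef, Hlf, Per1, Per2, Per3, Nr1d1 and Nr1d2, was −1.21, −0.23, −1.13 and −0.24 in RE1 KO libraries 1 to 4, against −3.43, −3.29, −2.73 and −1.64 in WT libraries 1 to 4. The groups did not overlap in it, so within these 8 libraries genotype and clock state can be separated only through the spread inside each group.

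Inside the groups, the deviation of Plin5 had an r of 0.97 with that of the index, Plin2 0.93, Plin4 0.87, Pnpla7 0.80 and Lipe 0.75, whereas Dgat2 had −0.59. In RE1 KO the index was −1.21 and −1.13 in replicates 1 and 3, against −0.23 and −0.24 in replicates 2 and 4. These pairs also differed in chi-square per gene and in mitochondrial rRNA. Within RE1 KO the index and the pair of libraries therefore cannot be told apart. Libraries with a higher index tended to have more Pnpla7 than others of their group. Between the groups, RE1 KO libraries had the higher index and less Pnpla7. With the index as a covariate the log2 fold change of Pnpla7 was −0.57 and no longer passed the threshold, that of Plin5 turned to −0.27, and those of Plin2, Plin4, Lipe and Mgll were −0.39, −0.32, −0.72 and −0.36. In that fit 0 genes were called higher and 2 lower over the whole table, with 1230 genes at an unadjusted edgeR p under 0.05. What part the time of day had in the values of these genes was not tested.

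**Figure D5:**
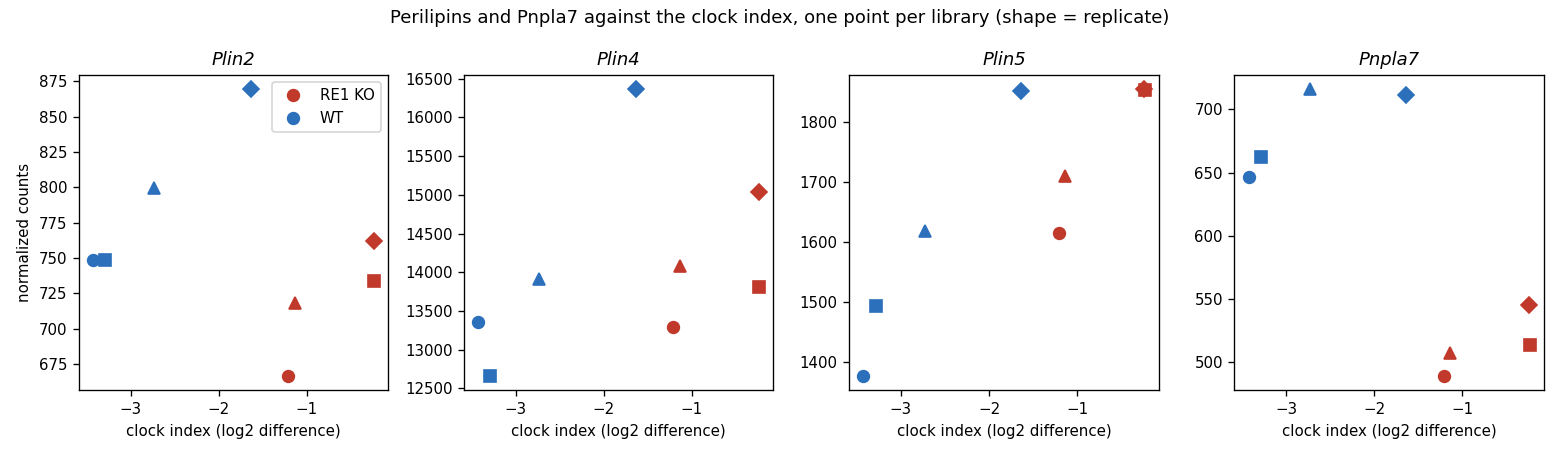
Normalized counts of Plin2, Plin4, Plin5 and Pnpla7 (axes not starting at 0) against the clock index in log2 units, with 1 point per library, RE1 KO in red and WT in blue. Within each group the counts tend to be higher at a higher index, and RE1 KO libraries lie at −1.21 to −0.23 on the index, against −3.43 to −1.64 for WT libraries.

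The sum of the 7 fat cell markers, by the same within-group measure, had an r of −0.90 with G0s2 and of 0.58 or less with each of the other 9 genes. The sum was taken on a log2 scale, where a few reads weigh heavily. The markers had 1, 4, 27 and 9 raw reads in RE1 KO libraries 1 to 4, against 31, 46, 20 and 101 in WT libraries 1 to 4. Log2 library depth had an r of −0.83 with Pnpla2. Endothelial markers summed to 16378 to 18536 normalized counts in RE1 KO and 18428 to 19950 in WT libraries. Fibroblast markers summed to 13740 to 14078 in RE1 KO and 12313 to 13146 in WT libraries, without overlap. By edgeR 1 of 6 endothelial markers was called lower, against 0.508% of all genes tested. Likewise 1 of 5 fibroblast markers was called higher, against 0.278% of all genes tested. Macrophage markers summed to 2558 to 2896 in RE1 KO and 2428 to 3160 in WT libraries, mesothelial markers to 116 to 563 in RE1 KO and 25.5 to 272 in WT libraries, and hepatic and steroidogenic markers to 51.1 to 79.0 in RE1 KO and 44.1 to 57.4 in WT libraries, with Alb at 0 in all 8. The 6 mesothelial markers had a median log2 fold change of 1.89, and 0 of them were called. What part the cells of these lists had in the levels of the 10 genes was not tested.

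Some of the genes overlap others on the opposite strand, and whether reads were counted by strand is not stated in the labels. Exons of Plin4 overlap those of Hdgfl2, which had 656 normalized counts in RE1 KO and 672 in WT ventricles on average (log2 fold change −0.04, SE 0.05). The antisense genes 4732471J01Rik at Lipe and Gm26588 at Mgll had at most 4.33 normalized counts in any library. G0s2 overlaps the span of Lamb3, a laminin chain gene that shares no exon bases with it and that fell, at 220 in RE1 KO and 300.4 in WT ventricles on average (log2 fold change −0.46, SE 0.09, adjusted p = 0.0281 by edgeR). Exons of Pnpla8 overlap those of Gm47096, also on the opposite strand. Of 100-base stretches of exon, 0.115% of those of Plin2 also occur on the same strand in exons of another gene, and 0% of those of the other 9 genes. On the opposite strand, 7.14% of those of Lipe occur in 4732471J01Rik and 0.139% of those of Pnpla8 in other genes. The remaining genes shared none on that strand. Of the nearest genes on either side that do not overlap any of the 10 and were tested, 0 passed the threshold.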

How the data were processed

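Left ventricular RNA of 4 RE1 KO and 4 WT mice was sequenced as paired-end reads of 125 bases from 900 ng of total RNA with a stranded kit, per the labels' protocols. The submitters' processing notes name STAR, DESeq2 and the build mm10, without versions. Neither the counting program nor its strand setting is given in the sources used here. Raw read counts per gene were deposited by the authors, together with normalized values (a signal) that equal those counts divided by 1 size factor per library within a relative spread of at most 9.84e-15. The authors also deposited a table with a log2 fold change of WT over RE1 KO and p-values per gene.

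Raw counts were fitted in edgeR 4.0.16 under R 4.3.3 (quasi-likelihood F test, TMM normalization, filterByExpr, no term besides group). The two-sided p-values were adjusted by Benjamini and Hochberg's method across the whole table of 16551 tested genes and called at 0.05, and adjusted p-values in the text come from it. A standard error is the log2 fold change over the square root of F. Means and SDs use the authors' normalized counts, and log2 CPM used a prior count of 2. The alternatives were DESeq2 1.42.0, limma 3.58.1 on the normalized counts, other size factors and filters, a replicate block, a clock covariate, leaving out each library, and robust dispersion estimates, the last chosen after seeing the data. Libraries of the same group differed beyond counting noise (chi-square per gene 3.09 to 16.4), so each counts as 1 replicate. Gene positions are from GENCODE M21 (GRCm38), and promoter windows are from RefSeq.

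The 10 genes and all lists were chosen with earlier results of these data known. Named are the 10 genes, Nppa and Nppb, up to 4 genes of each list by smallest p together with any called, 3 adipocyte and 3 clock genes, and the 3 genes most like a called one; other named genes (Dgat1, Cpt1b, Cd36, Acadvl, Pdk4, Lamb3, Hdgfl2, neighbours and single cell markers) were added after their values were seen.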

Additional observations from a re-analysis of the deposited data

Results flagged for a closer look

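Of 90 sets of 4 libraries (45 named genes in each group), 6 held a library far from the other 3. Chance gives about 1 in 20 for normally distributed values. That rate does not apply to Adipoq and Cidec, which had few counts. With the other RE1 KO libraries at 0, any count of Adipoq in 1 library would be flagged. Adipoq, the fat cell hormone, was at 6.26 normalized counts in RE1 KO replicate 3 and at 0 in the other RE1 KO libraries, and at 19.5 in WT replicate 4, against 5.32 to 6.87 in the other WT libraries. Cidec, a droplet protein of fat cells, was at 5.22 in RE1 KO replicate 3, against 0 to 0.688 in the other RE1 KO libraries. Ppargc1b, a coactivator of oxidative genes, was at 844.0 in RE1 KO replicate 4, against 691 to 712 in the others of its group. Ppard, a PPAR factor, was at 181.9 in RE1 KO replicate 1, against 146 to 148 in the others. Nppa was at 627.9 in WT replicate 2, against 327 to 378 in the other WT libraries. None of the 10 droplet and lipase genes had such a library in either group.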

How the results depend on the processing

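Genes called higher over the whole table numbered 46, and 233 with no low-count filter, 112 with DESeq2, 0 with the clock index as a covariate and 3 to 102 when single libraries were left out. Genes called lower numbered 84, and 313, 184, 2 and 18 to 139 in the same settings. Without RE1 KO replicates 1 and 2 the counts were 16 and 3 higher and 38 and 18 lower. Without WT replicates 1, 2, 3 and 4 they were 5, 38, 76 and 102 higher and 26, 49, 135 and 139 lower. Among the 10 genes 1 was called lower, and 2 with no filter, 2 with DESeq2, 0 with the clock index and 1 to 2 with single libraries left out, the second gene being Mgll each time. In the pathway lists 0 were called higher, and 1 with no filter, 1 with DESeq2 and 0 to 1 with libraries left out (1 each without RE1 KO replicate 4, Pnpla3, and without WT replicate 3, Acsl3), and 0 were called lower, and 5 with no filter, 1 with DESeq2 and 2 with the replicate block (Ppargc1a and Cpt1a).

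Same-numbered libraries did not deviate together (r from −0.08 to 0.02 over genes), so the numbers are not taken to pair the mice. With the replicate block 59 genes were called higher and 87 lower, and 1 of the 10 lower. Robust dispersion estimates, chosen after seeing the data, gave 62 and 114.

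The sign turned in 15 cases. Plin4, at −0.003, was at 0.0031 with limma at either pseudocount (1 and 0.1), at 0.0023 with the replicate block and at −0.050 to 0.078 when single libraries were left out, with 0.022 without RE1 KO replicate 1, 0.0050 without RE1 KO replicate 2 and 0.078 without WT replicate 4. G0s2 was at −0.016 to 0.16 when single libraries were left out, the negative value without RE1 KO replicate 2. With the clock index Plin5 was at −0.27, Dgat2 at 0.12, Abhd6 at 0.19, Lmf2 at 0.036, Fitm1 at −0.045, Npr1 at −0.010, Prkg2 at 0.049 and Arntl, one of the genes of the index, at −0.17. The cause of these turns was not tested.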
